A study of Mus musculus with 24 samples.

Results

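The miRNAs encoded inside the mouse Hox gene clusters were followed through 24 mammary libraries. They are listed as mir-10a, mir-10b, mir-196a, mir-196b and mir-615 and were chosen by these names, 5 of the 510 names in the count table. All 5 had reads in every library and passed the filter on low counts, which kept 237 names. Each of weeks 6, 8, 10 and 12 had 3 PyMT mice, whose mammary tumors were taken, and 3 FVB control mice, which gave normal glands. PyMT mice were F1 females of the FVB strain, heterozygous for the MMTV-PyMT transgene, in which the promoter of mouse mammary tumor virus drives the polyoma middle T oncogene in the mammary epithelium. Control females of the FVB strain lacked the transgene. The PyMT samples stood for hyperplasia at week 6, adenoma or mammary intraepithelial neoplasia at week 8, early carcinoma at week 10 and late carcinoma at week 12. The tissue was whole and snap-frozen, so fewer cells of a type and less RNA per cell cannot be told apart, and hyperplasia and adenoma tissue still held normal gland cells. Which of the mammary glands was taken is not given in the sources used here.

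Hox genes encode transcription factors that set position along the body axis, and each cluster is activated in the order in which its genes lie on the chromosome. The miRNAs inside the clusters are transcribed from the same strand as their Hox neighbours and some of their known targets are Hox mRNAs, such as Hoxb8 for miR-196. A mature miRNA finds its targets mainly through its seed, bases 2 to 8 from the 5′ end. In breast cancer research, miR-10b is known for its study in metastasis.

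The mature sequences are shown because the miR-10 pair and the miR-196 pair each share a seed and differ by a single base, which bears on how their reads can be told apart. They are those of RefSeq (GRCm38.p6 table), the seed is in capitals, and each was found in the mm9 genome at the place given below.

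miR-10a-5p: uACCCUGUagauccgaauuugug
miR-10b-5p: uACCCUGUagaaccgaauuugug
miR-196a-5p: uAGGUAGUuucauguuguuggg
miR-196b-5p: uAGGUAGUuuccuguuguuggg
miR-615-5p: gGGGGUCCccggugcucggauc
miR-615-3p: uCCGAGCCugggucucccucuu

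miR-10a and miR-10b share a seed and differ by U12A, and miR-196a and miR-196b share another and differ by A12C, with positions counted from the 5′ end of the first named. Both differences lie outside the seed. No other mature sequence in the table has any of these seeds. The count table gives a value per name, so the arms of a precursor were not separated and the arm counted for miR-615 is not known. Reads could also be split between paralogs that differ by 1 base, depending on the mismatches the authors allowed, and the separate levels of paralogs are uncertain to that extent.

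The 6 precursor genes lie in all 4 clusters. Mature miR-10a (chr11:96178500-96178522, + strand, mm9) lies in an exon of an annotated Hoxb4 transcript, 1.5 kb ahead of the Hoxb4 coding sequence. Mature miR-10b (chr2:74564131-74564153, + strand) lies in introns of Hoxd4 and Hoxd3 transcripts, 1.14 kb ahead of the Hoxd4 coding sequence, so both paralogs occupy the same place relative to a group 4 Hox gene. miR-196a has 2 genes with the same mature sequence, and the count table holds them under 1 name. Mir196a-1 (chr11:96126501-96126522, + strand) lies between genes, 6.28 kb from Hoxb9, and Mir196a-2 (chr15:102803796-102803817, + strand) lies in an intron of the non-coding Gm20398, between Hoxc10 and Hoxc9. miR-196b (chr6:52180128-52180149, − strand) lies between the coding sequences of Hoxa9 and Hoxa10, in an exon or intron of annotated Hoxa9 transcripts. miR-615 lies in an intron of Hoxc5, with the 5p sequence at chr15:102845357-102845378 and the 3p sequence at chr15:102845400-102845421 on the + strand. The miR-196 genes are thus on the side of the high-numbered, posterior Hox genes, and the miR-10 genes and miR-615 are on the side of the low-numbered ones.

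**Figure D1:**
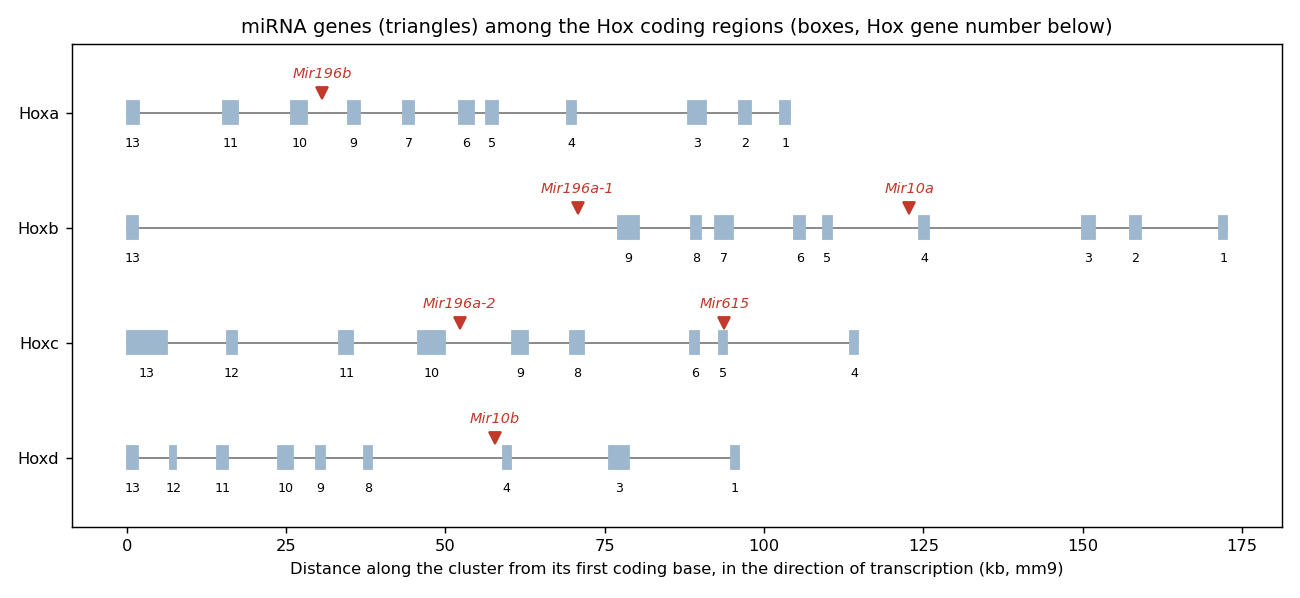
Position of the 6 miRNA genes (triangles) among the Hox coding regions (boxes with the Hox gene number) of the 4 clusters, in kb from the first coding base of the cluster in the direction of transcription (mm9; the transcript with the longest coding sequence of each gene). Mir10a and Mir10b sit 1.5 and 1.14 kb ahead of Hoxb4 and Hoxd4, and the 3 miR-196 genes sit next to group 9 or 10 Hox genes.

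Depth was 1626022 to 3931375 counts per normal library and 1032241 to 2213972 per tumor library. Levels are given in CPM, the count scaled to library size after TMM normalization. A count of 3, taken as the floor, was worth 0.763 to 1.84 CPM in normal and 1.36 to 2.91 CPM in tumor libraries before that scaling, for counting error only. The test of tumor against normal was the quasi-likelihood test of edgeR, and an adjusted p under 0.05 (Benjamini-Hochberg over the 237 names) was called. The 5 names differed widely in level. By mean log2 CPM, miR-10b ranked 3 and miR-10a ranked 4 among the 237 names, while miR-196b, miR-615 and miR-196a ranked 139, 156 and 173.

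miR-10b was the most abundant of the 5 and was under-expressed in tumor at every week. In normal glands its level was 117092, 118679 and 150814 CPM at week 6, and 148042, 123716 and 160658 CPM at week 8. At week 10 it was 149897, 130120 and 137333 CPM, and at week 12 it was 146466, 172980 and 206808 CPM. In every normal library it was the second most counted miRNA.

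In tumors miR-10b was at 63870, 62643 and 78032 CPM at week 6, and 39191, 19513 and 53081 CPM at week 8. At week 10 the levels were 36145, 31580 and 41129 CPM, and at week 12 they were 28605, 41159 and 23499 CPM. All 12 tumor libraries lay below all 12 normal libraries, and miR-10b ranked between 3 and 8 among the miRNAs of a tumor library. The log2 fold change was -0.91 (SE 0.18, n = 3 per group, adjusted p = 0.00540 in edgeR) at week 6 and -1.99 (SE 0.39, adjusted p = 0.00851) at week 8. It was -1.95 (SE 0.15, adjusted p = 8.48e-05, edgeR) at week 10 and -2.51 (SE 0.31, adjusted p = 7.63e-04, edgeR) at week 12. These values correspond to 1.88-fold, 3.96-fold, 3.86-fold and 5.72-fold lower levels. Without tumor library 2 of week 6, the week 6 value was -0.79 with an adjusted p of 0.0521 in edgeR.

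All 4 normal groups of miR-10b stood above all 4 tumor groups, from 175418 ± 30245 CPM (SD, n = 3) in normal glands at week 12 down to 31088 ± 9088 CPM in tumors at week 12. Among tumors, week 6 stood highest at 68181 ± 8553 CPM, and the means of weeks 8, 10 and 12 lay between 31088 and 37262 CPM, with libraries of these weeks that overlapped. The change over the 4 weeks within tumors had an unadjusted p of 0.00141 and an adjusted p of 0.0835 in edgeR, so it was not past the threshold, and neither was any of the 237 names (0% called, 39 at an unadjusted p under 0.05). Within normal glands, where 13.9% of the names changed over the weeks, miR-10b did not pass the test (adjusted p = 0.676, edgeR). The week 12 difference was lower than the week 6 difference by 1.58 on the log2 scale (-1.58, SE 0.38, unadjusted p = 4.97e-04), with an adjusted p of 0.0589 in edgeR. That contrast was called for 0.422% of the names, which is 1 of 237. Leaving out names with under 10 counts in some library gave an adjusted p of 0.0176, and the sequencing lane as a covariate gave 0.0302 in edgeR, both past the threshold. The adjusted p in edgeR missed it with DESeq2 size factors (0.0706), without a filter (0.0883) and with library sizes only (-1.30, 0.189). It also missed it without both week 6 libraries numbered 3 (-1.53, 0.187), which was tried once the values had been seen.

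miR-10a, its paralog ahead of Hoxb4, was also under-expressed, but by less. Normal glands had 61143, 67639 and 69378 CPM at week 6, and 110336, 68349 and 72835 CPM at week 8. They had 74072, 71365 and 71448 CPM at week 10, and 87747, 58230 and 108098 CPM at week 12. The normal levels of weeks 8 and 12 were the more scattered ones, with an SD of 23056 and 25074 CPM against 4340 and 1539 CPM at weeks 6 and 10.

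Tumors had 49444, 49089 and 34994 CPM of miR-10a at week 6, and 48099, 18782 and 45621 CPM at week 8. Tumors of week 10 had 29723, 31965 and 36972 CPM, and those of week 12 had 36407, 43219 and 23624 CPM. At each week the 3 tumor libraries lay below the 3 normal libraries. The log2 fold change was -0.57 (SE 0.17, n = 3 per group, adjusted p = 0.0229 in edgeR) at week 6 and -1.15 (SE 0.13, adjusted p = 4.65e-04) at week 10. At week 12 it was -1.33 (SE 0.35, adjusted p = 0.0173, edgeR), and at week 8 it was -1.21 (SE 0.42) and missed the threshold at an adjusted p of 0.0545. The week 6 call was also lost in edgeR without normal library 2 (-0.55, adjusted p = 0.0606), tumor library 1 (-0.63, 0.0566), tumor library 2 (-0.58, 0.0774) or tumor library 3 (-0.33, 0.0876), and the week 12 call without tumor library 3 (-1.12, 0.0650). With the classic exact test of edgeR or a single fit of all libraries, the week 6 value was -0.57 with an adjusted p of 0.0800 or 0.110. Tumor library 2 of week 8, at 18782 CPM, was well below the other two tumors of that week.

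Together miR-10a and miR-10b took 19.3% to 25.3% of all counts in normal libraries (median 22%) and 3.16% to 11.6% in tumor libraries (median 7.62%). The groups did not overlap in this share. A share of raw counts also depends on the other abundant miRNAs of a library, so it does not measure the miR-10 level alone.

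**Figure D2:**
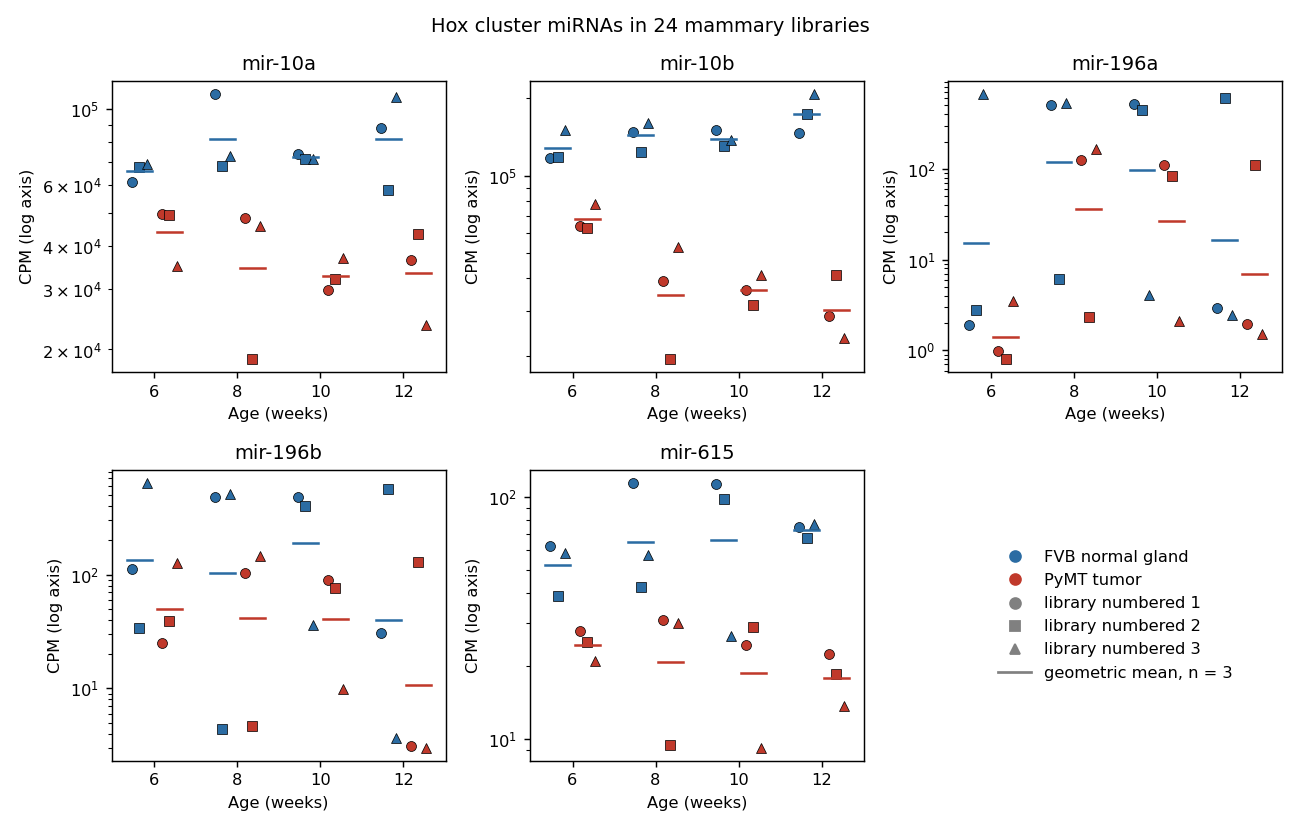
Level of each miRNA in the 24 libraries (CPM, log axis) by age in weeks, with normal glands in blue, tumors in red, a symbol for each library number and the geometric mean of the 3 libraries as a bar. miR-10a and miR-10b tumors lie below normals at every week, while miR-196a splits each group except the tumors of week 6 into libraries near 1 to 6 CPM and libraries of 83.5 CPM or more.

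miR-10a and miR-10b did not fall in proportion. A ratio of 2 counts in the same library needs no scaling between libraries, and there were 0.337 to 0.745 miR-10a reads per miR-10b read in normal glands (median 0.522) and 0.448 to 1.27 in tumors (median 0.931). The log2 ratio was higher in tumor by 0.79 (SE 0.12, n = 12 per genotype; p = 7.5e-05, adjusted over the 2 paralog pairs 0.00015, exact two-sided permutation test within weeks, smallest possible p 1.25e-05). In tumors the mean ratio was 0.669 ± 0.191 (SD, n = 3) at week 6 and 1.02 ± 0.190 at week 8. Tumors of weeks 10 and 12 had 0.911 ± 0.0955 and 1.11 ± 0.143. In normal glands it stayed between 0.486 and 0.584. At week 6 the tumor and normal ratios overlapped, since tumor library 3 had 0.448, and from week 8 every tumor library lay above every normal library of its week. Leaving out any of the 24 libraries kept the difference between 0.73 and 0.86.

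**Figure D3:**
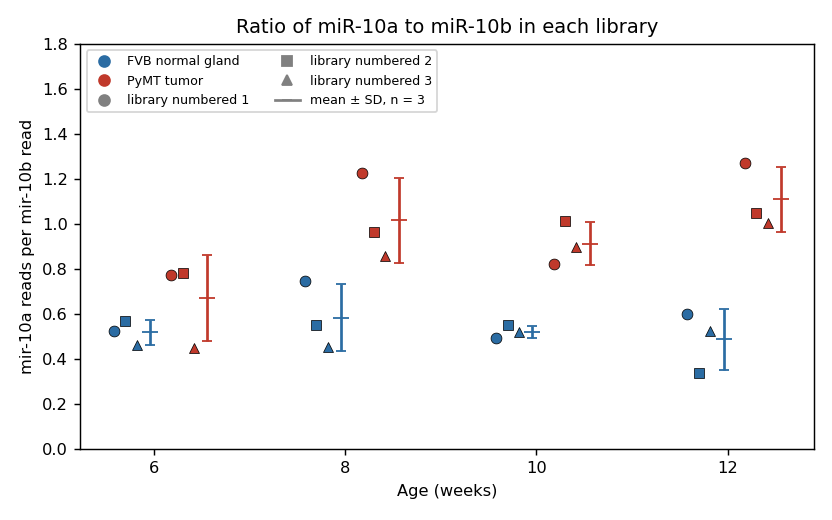
Reads of miR-10a per read of miR-10b in each library by age in weeks (blue normal gland, red tumor; symbols give the library number; bars are mean ± SD, n = 3). Tumor ratios reach 1.27 and normal ratios do not exceed 0.745, and the groups overlap at week 6.

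miR-196a had the largest spread within groups of the 237 names. In normal glands its level was 1.89, 2.79 and 663 CPM at week 6, and 501, 6.15 and 532 CPM at week 8. At week 10 it was 519, 440 and 4.09 CPM, and at week 12 it was 2.92, 600 and 2.46 CPM. Every normal group thus held libraries near the floor beside libraries of 440 CPM or more.

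Tumors had 0.997, 0.807 and 3.49 CPM of miR-196a at week 6, and 125, 2.35 and 166 CPM at week 8. Week 10 gave 110, 83.5 and 2.12 CPM, and week 12 gave 1.96, 111 and 1.51 CPM. The same library numbers were high in both genotypes at weeks 8 (1 and 3), 10 (1 and 2) and 12 (2), while at week 6 library 3 was high in normal glands and low in tumors. The highest tumor library had 166 CPM and the highest normal library 663 CPM.

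Sorted by level, the 24 libraries left an empty stretch of 3.58 log2 units of miR-196a between 6.15 and 83.5 CPM, the widest among the 237 names on log2 CPM with a prior count of 2. Above it were 11 libraries, 6 normal and 5 tumor, with 92 to 2556 counts, and below it 13 libraries with 1 to 14 counts. The next widest stretch with at least 6 libraries on each side was 2.09 log2 units, for mir-146b, and there it separated the 12 tumors from the 12 normal glands. A split within both genotypes was not particular to miR-196a. The muscle miRNAs mir-133a (1.92 log2 units, 4 normal and 3 tumor libraries above) and mir-1 (1.86, 5 and 4 above) had narrower ones. Of the libraries sequenced in lane 1, 4 were above the stretch of miR-196a and 8 below. The pooled SD within groups was 3.43 log2 units, the largest of the 237 names, against a median of 0.37. miR-196b ranked 5 by this SD, at 2.62.

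The weekly log2 fold change of miR-196a was -6.90 at week 6 (SE 2.38, n = 3 per group, adjusted p = 0.0390 in edgeR), and it rested on a single library. Without normal library 3, it was -0.39 with an adjusted p of 0.598. Without tumor library 1, 2 or 3 it was -6.55, -6.62 or -7.67, with an adjusted p of 0.112, 0.117 or 0.1003 in edgeR. That normal library had a summed level of 93.6 CPM of the listed skeletal muscle miRNAs, where the other normal libraries of week 6 had 87491 and 29085 CPM, but low muscle and high miR-196a did not go together in every library. Normal library 2 of week 12 had 2464 CPM of muscle miRNAs with 600 CPM of miR-196a. No other library high in miR-196a had as much muscle. Libraries above that level had 0.807 to 4.09 CPM of miR-196a. The level was read from these same values, so no high library could lie above it. At or below it, libraries high and low in miR-196a both occurred. Tumor library 3 of week 6 had 2196 CPM of muscle miRNAs with 3.49 CPM of miR-196a. Normal library 3 of week 12 had 707 with 2.46 CPM, and normal library 2 of week 8 had 245 with 6.15 CPM. The part of muscle in the result was not tested.

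At weeks 8, 10 and 12 the log2 fold change of miR-196a was -1.88 (SE 1.46), -2.32 (SE 1.57) and -2.35 (SE 2.14), and the adjusted p was 0.321, 0.223 and 0.387 in edgeR. Tumor and normal libraries overlapped at all 4 weeks. Without normal library 3 of week 10 the value was -2.96 and past the threshold (adjusted p = 0.0333, edgeR), and without normal library 2 of week 12 the sign turned, to 3.72 (adjusted p = 0.155). That last fit kept tumor library 2, at 111 CPM, beside normal libraries of 2.92 and 2.46 CPM. Compared by library number, week 12 tumors were at 67.3%, 18.6% and 61.3% of normal, the first and last on 2 to 9 counts.

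miR-196b, on the Hoxa cluster, followed miR-196a where that was high. Normal glands had 112, 33.9 and 637 CPM at week 6, and 484, 4.40 and 505 CPM at week 8. At week 10 they had 475, 400 and 35.8 CPM, and at week 12 they had 30.5, 560 and 3.70 CPM. Its low libraries were less uniform than those of miR-196a, from 3.70 to 112 CPM.

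Tumors had 24.9, 38.8 and 125 CPM of miR-196b at week 6, and 103, 4.70 and 147 CPM at week 8. At week 10 they had 88.7, 76.2 and 9.88 CPM, and at week 12 they had 3.14, 129 and 3.02 CPM. Tumor library 3 of week 6 had 215 counts of miR-196b and 6 of miR-196a, so the paralogs parted there. None of the weekly differences passed the test: the log2 fold change was -2.03 (SE 1.07), -2.01 (SE 1.44), -2.40 (SE 1.05) and -2.10 (SE 1.82) at weeks 6, 8, 10 and 12, with an adjusted p of 0.138, 0.286, 0.0824 and 0.368 in edgeR. In edgeR it passed without normal library 2 at week 6 (-2.55, adjusted p = 0.0457) or normal library 3 at week 10 (-3.00, 0.00891), and without normal library 2 of week 12 the sign turned (1.32, 0.559). That last fit kept tumor library 2, at 129 CPM, beside normal libraries of 30.5 and 3.70 CPM. With the sequencing lane as a covariate the miR-196b difference passed at week 6 (-1.60, adjusted p = 0.0323, edgeR).

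In the 11 libraries with at least 92 counts of miR-196a, there were 0.805 to 1.16 counts of miR-196b per count of miR-196a, with a median of 0.915. In the other 13 libraries, with 1 to 14 counts of miR-196a, miR-196b had 4 to 237 counts and a median of 48. Some libraries therefore had miR-196b with hardly any miR-196a, such as normal library 1 of week 6 with 237 and 4 counts, but none had the reverse. The log2 ratio of miR-196a to miR-196b differed by -0.24 between tumor and normal (SE 0.61, n = 12 per genotype; p = 0.700, exact two-sided permutation test within weeks), and the ratio ran from 0.0189 to 1.38 over the normal libraries and from 0.0302 to 1.24 over the tumor libraries. Without normal library 3 of week 6 the sign turned, to 0.15.

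**Figure D4:**
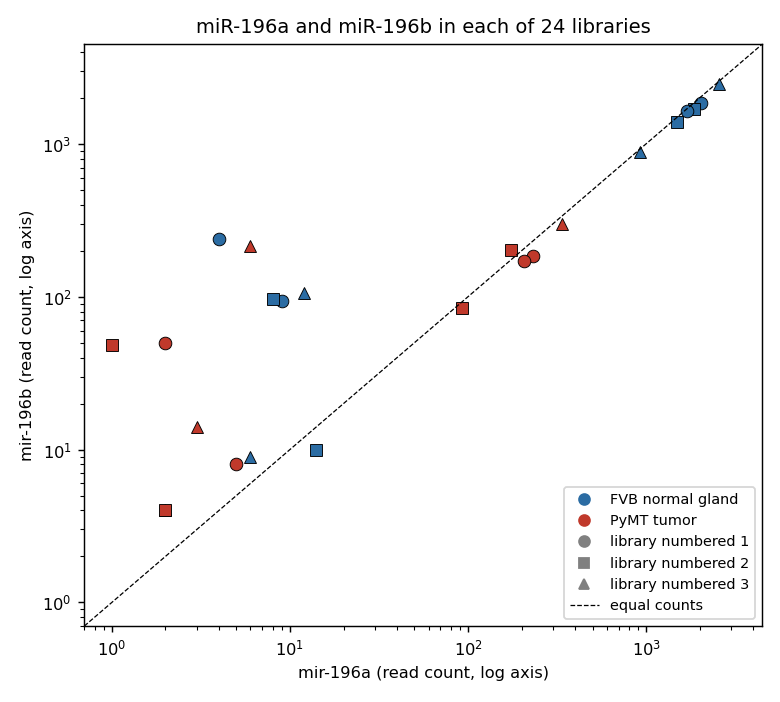
Counts of miR-196b against counts of miR-196a in each of the 24 libraries (both axes log; blue normal gland, red tumor; symbols give the library number; dashed line at equal counts). 11 libraries lie along the line at 92 counts of miR-196a or more, and the other 13 hold at most 14 counts of miR-196a and 4 to 237 of miR-196b.

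miR-615, in the intron of Hoxc5, was detected at a low level in every library. Normal glands had 62.4, 38.7 and 58.6 CPM at week 6, and 114, 42.2 and 57.4 CPM at week 8. At week 10 they had 113, 98.3 and 26.6 CPM, and at week 12 they had 75.2, 67.5 and 76.8 CPM. Library 3 of week 10 was the lowest normal library.

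Tumors had 27.9, 25.0 and 20.9 CPM of miR-615 at week 6, and 31.0, 9.41 and 30.1 CPM at week 8. At week 10 they had 24.3, 29.0 and 9.18 CPM, and at week 12 they had 22.4, 18.6 and 13.6 CPM. Tumor and normal libraries did not overlap at weeks 6, 8 and 12, and at week 10 tumor library 2 reached above normal library 3. The log2 fold change was -1.11 (SE 0.26, n = 3 per group, adjusted p = 0.0117 in edgeR) at week 6 and -1.95 (SE 0.63, adjusted p = 0.0320) at week 10. At week 12 it was -2.01 (SE 0.28, adjusted p = 0.00113, edgeR), and at week 8 it was -1.63 (SE 0.56) and missed the threshold at 0.0545.

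The calls of miR-615 at weeks 6 and 10 were lost when 1 of several libraries was left out. The value then stayed between -1.29 and -0.91 at week 6 and between -2.44 and -1.59 at week 10. The week 6 call was lost without tumor library 2 (-1.06, adjusted p = 0.0542 in edgeR) or tumor library 3 (-0.91, 0.0568), and in a single fit of all libraries (-1.11, 0.0648). The week 10 call was lost without any library but normal library 3, that is without normal library 1 (-1.62, 0.0731) or 2 (-1.88, 0.0731) or tumor library 1 (-2.10, 0.0689), 2 (-2.24, 0.0551) or 3 (-1.59, 0.0735). At week 8, leaving out normal library 2 gave -1.92 and a call (adjusted p = 0.0445, edgeR).

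Counted over the 5 names, 4, 1, 3 and 3 were under-expressed in tumor in the fits of weeks 6, 8, 10 and 12. The same call in the same direction was made for 29.5%, 13.5%, 27.4% and 21.5% of the 237 names. Tumor libraries lay below normal libraries without overlap for 3, 3, 2 and 3 of the 5, against 34.6%, 19.8%, 31.6% and 28.7% of all names. The median log2 fold change of the 5 was -1.11, -1.88, -1.95 and -2.10, where the median of all names lay between -0.19 and -0.09. No weekly value of the 5 was above 0. The scaling of the libraries moved the values little, by a median of at most 0.16 log2 units at any week.

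**Figure D5:**
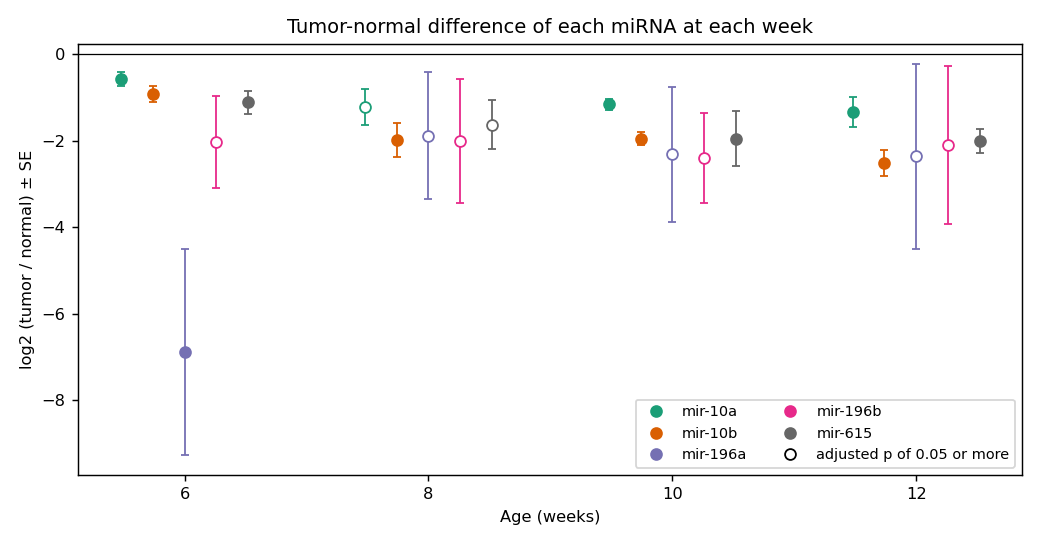
log2 fold change of tumor against normal gland for each miRNA at each week (points, with SE as bars; filled where the adjusted p was under 0.05 in edgeR, open otherwise; n = 3 per group). All 20 values lie below 0, and the bars of miR-196a and miR-196b are the longest.

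Averaged over the 4 weeks in a fit of all 24 libraries, each of the 5 was under-expressed in tumor, as were 46.8% of the 237 names. miR-10b had a mean log2 fold change of -1.83 (SE 0.14, n = 12 per genotype, adjusted p = 4.83e-10 in edgeR), or 3.55-fold lower, the tenth lowest of the 237. miR-10a had -1.04 (SE 0.15, adjusted p = 3.77e-06, edgeR), or 2.06-fold lower, and ranked 43 from the lowest. For miR-615 the value was -1.65 (SE 0.25, adjusted p = 7.93e-06, edgeR), or 3.14-fold lower, with rank 13.

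The miR-196 paralogs had the larger but less certain means. miR-196a had -3.36 (SE 1.19, adjusted p = 0.0136, edgeR), the lowest of all names, and miR-196b had -2.13 (SE 0.86, adjusted p = 0.0270, edgeR), with rank 8. Both calls were lost without either of 2 normal libraries. Without normal library 3 of week 6 the means were -1.81 (adjusted p = 0.133) and -1.75 (0.0609), and without normal library 2 of week 12 they were -1.88 (0.115) and -1.32 (0.120) in edgeR, which leaves 3 of the 5 names called. With both libraries numbered 3 of week 6 left out (tried once the values had been seen), miR-196b was still called (-2.01, adjusted p = 0.0463, edgeR) and miR-196a was not (-2.05, 0.131). Compared by library number, which was not taken as a pairing, miR-196a was lower in tumor in 12 of 12 comparisons (median 30% of normal). miR-196b was lower in 10 of 12 (median 22.6%), and some comparisons of both rested on few counts.

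Whether the difference varied over the weeks was tested as an interaction, and none of the 237 names passed it (0% called in edgeR, 9 at an unadjusted p under 0.05). Among the 5, miR-10b had the lowest p, 0.00435 unadjusted and 0.446 adjusted in edgeR. For the change from week 6 to week 12 the other 4 had an adjusted p between 0.426 and 0.994. Within normal glands the 5 had an adjusted p between 0.676 and 0.985 for a change over the weeks, and within tumors the 4 other than miR-10b lay between 0.661 and 0.990.

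Other miRNAs varied over the libraries in a similar way, which is given as a description since all points share the libraries and the tumor-normal difference. Over the 24 libraries, the Spearman correlation with miR-10a was highest for mir-126 (0.961), mir-150 (0.949) and mir-143 (0.906), and with miR-10b for mir-130a (0.935), mir-145 (0.931) and mir-708 (0.924). Around the group means, where that difference is taken out, miR-10a still went most with mir-126 (Pearson 0.852), mir-150 (0.822) and mir-139 (0.727). There miR-10b went most with mir-195 (0.852), mir-145 (0.776) and mir-199b (0.774). mir-126 is known from endothelium, mir-150 from lymphocytes, and mir-143 and mir-145 from smooth muscle and other stroma.

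For miR-615, mir-126 (Spearman 0.917), mir-139 (0.897) and mir-150 (0.883) came first over the 24 libraries. Around the group means its first were mir-139 (Pearson 0.733), mir-365 (0.705) and mir-126 (0.705). miR-196a went with mir-34b (Spearman 0.759), mir-145 (0.683) and mir-34c (0.672), and miR-196b with mir-145 (0.662), mir-496 (0.660) and mir-34b (0.639). Around the group means mir-145 came first for both, with a Pearson correlation of 0.818 for miR-196a and 0.776 for miR-196b. Next came mir-34b (0.772 and 0.719), then mir-195 for miR-196a (0.702) and let-7a for miR-196b (0.602). The miR-196 paralogs were closer to each other than to any of these, at 0.930, while the miR-10 pair stood at 0.693.

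Markers of other cell types moved with genotype in the same libraries. Of 10 epithelial miRNAs, 8 were over-expressed in tumor in the mean over weeks and 1, mir-203, was under-expressed, while mir-205 did not pass the test, with a summed level of 15327 to 30652 CPM in normal and 57013 to 98241 CPM in tumor libraries. All 5 stromal miRNAs (mir-143, mir-145, mir-199a, mir-199b and mir-214) were under-expressed, with sums of 158619 to 276068 CPM in normal and 70032 to 136943 CPM in tumor libraries. The endothelial mir-126 was under-expressed with a mean log2 fold change of -1.25 (SE 0.14, adjusted p = 9.14e-08 in edgeR), from 20498 to 37464 CPM in normal glands and 6568 to 18254 CPM in tumors. The mean difference of miR-10a, -1.04, lay near that of mir-126 and those of miR-10b, miR-196a, miR-196b and miR-615 lay below it, and these differences between miRNAs were not tested.

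The 3 erythroid miRNAs were under-expressed as well, with sums of 7798 to 34558 CPM in normal and 2060 to 13679 CPM in tumor libraries, as were 2 of 3 listed for fat, with 4662 to 25146 and 3046 to 15080 CPM. Of 4 leukocyte miRNAs, mir-150 was under-expressed, mir-142 and mir-155 did not pass the test, and mir-223 was at 0 in every library, with sums of 1681 to 3241 CPM and 1198 to 1868 CPM. The skeletal muscle list had 3 of its 6 names tested, all under-expressed, and its sums ran from 89.0 to 89335 CPM in normal and from 39.9 to 18075 CPM in tumor libraries. The part of these cell types in the differences of the 5 Hox cluster miRNAs was not tested.

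Relatives by sequence lie outside the Hox clusters. The miR-99 and miR-100 sequences share most of miR-10 but not its seed. The let-7 sequences other than let-7e hold the miR-196 seed letters shifted by 1 base. An example of each is given below with bases 2 to 8 in capitals.

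miR-100-5p: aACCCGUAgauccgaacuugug
let-7a-5p: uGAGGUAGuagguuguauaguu

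Of the miR-99 and miR-100 relatives, mir-100 (-1.13, SE 0.10) and mir-99a (-0.89, SE 0.09) were under-expressed in the mean over weeks, while mir-99b (0.25, SE 0.08) was over-expressed (adjusted p of at most 0.00645 in edgeR for the 3). The means of mir-100 and mir-99a were close to that of miR-10a and above that of miR-10b on the log2 scale. Of 9 let-7 and miR-98 names, 8 were tested and 5 were under-expressed, with a median of -0.24 and the lowest value at -0.64 for let-7a, and mir-98 was at 0 in every library.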

How the data were processed

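Small RNA was sequenced from 24 mammary libraries, 3 in each of 8 groups of genotype and week, each from a separate mouse. The authors removed barcode and adaptor, aligned reads of 17 to 27 bases with Bowtie, and counted those overlapping a miRBase miRNA; the deposited counts, 1 per miRNA name and library, are not normalized. The paper names mm10 and the labels mm9, and positions here are those of mm9. Groups, weeks, library numbers and lanes came from the labels.

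The counts were tested with edgeR 4.0.16 (R 4.3.3): filterByExpr over the 8 groups, TMM, quasi-likelihood test, Benjamini-Hochberg adjustment, threshold 0.05, with a fit for each week and a fit of all 24 libraries for means, interactions and changes over weeks. SE is the log2 fold change divided by the square root of F. Ratios of paralogs used counts plus 0.5. The procedure was tested on simulated data. Alternatives were other scalings and filters, DESeq2 1.42.0, the classic exact test, a single fit, lane, library number as a block and each library left out. Python 3.11.15 with matplotlib 3.10.9 drew the plots. Named miRNAs are the 5 Hox cluster miRNAs, listed relatives and cell type markers, and for each of the 5 the 3 most alike by each correlation; mir-146b was named after its values were seen. The 5 names and the lists were chosen with earlier results of these data known.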

Additional observations from a re-analysis of the deposited data

How the results depend on the processing

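miR-196a had at most 14 counts in 13 libraries, which limits its differences there, and 3 libraries per group limit the precision of all 5 names. The mean differences of miR-10a, miR-10b and miR-615 kept their direction and their call in every alternative that gave a value and without any of the 24 libraries. The number of the 5 names under-expressed at week 6 was 2 in a single fit of all libraries, 3 with the 10-count minimum, the DESeq2 Wald test or the classic exact test, and 5 with the lane as a covariate. At week 8 it was 3 with DESeq2 size factors, without a filter, with the DESeq2 Wald test, the classic exact test or the single fit, and 2 with at least 10 counts in every library. Over all 24 libraries, a minimum of 10 counts in every library removed miR-196a, miR-196b and miR-615 and gave 2 names under-expressed in the mean over weeks, 1 changed from week 6 to week 12 and 1 changed over the weeks in tumors. It gave no value for names it removed, and DESeq2 gave no adjusted p for miR-196a at weeks 6 and 12. The lane as a covariate gave 1 name changed from week 6 to week 12.

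Leaving out 1 library moved the number of names under-expressed to between 0 and 4 (week 6), 1 and 2 (week 8), 2 and 5 (week 10), 2 and 3 (week 12) and 3 and 5 (mean). The mean of miR-196a then ranged from -4.45 to -1.81 and that of miR-196b from -3.09 to -1.32. The log2 ratio of miR-196a to miR-196b ranged from -0.58 to 0.15. Without both week 6 libraries numbered 3, an alternative chosen after seeing the data, the mean of miR-196a was -2.05 (adjusted p = 0.131 in edgeR) and its change from week 6 to week 12 turned from 4.51 to -1.10. With the replicate block added to that alternative, the mean of miR-196a was -1.83 and called (adjusted p = 2.91e-05 in edgeR). The week 12 differences of miR-196a and miR-196b ranged from -6.74 to 3.72 and from -5.92 to 1.32. Both turned in sign without normal library 2, with the high tumor library 2 kept. The cause of these changes was not tested beyond the libraries named.

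Library numbers were not taken to pair tumor and normal mice in the main fits. Over the other names, deviations of same-numbered libraries from their group means correlated above 0.1 in 8 of 12 pairs and not in all (from -0.11 to 0.78). Their mean correlation was 0.27, against -0.12 for libraries of different numbers in the same week. Not every library correlated best with its own number, so these values do not settle whether the numbers pair. With the replicate block all 5 names were under-expressed at each of the 4 weeks and in the mean, that is 5 at weeks 8, 10 and 12. The block called 30%, 28.7%, 32.9% and 21.5% of all names lower at weeks 6, 8, 10 and 12, and 45.1% in the mean. Under the block, the adjusted p by week was 0.00802, 2.27e-04, 5.32e-06 and 0.00924 for miR-196a and 0.0421, 0.00120, 9.20e-07 and 0.00163 for miR-196b in edgeR, with a week 6 value of -5.98 for miR-196a. The blocked means were -2.93 (SE 0.398, adjusted p = 1.91e-05 in edgeR) for miR-196a and -1.91 (SE 0.272, adjusted p = 2.75e-05) for miR-196b. Of the 5, the block also called 1, miR-10b, for the change from week 6 to week 12 (-1.60, adjusted p = 0.0360 in edgeR).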
